A study of Homo sapiens with 2 samples.

Results

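The genes described here are the CLK kinases CLK1, CLK2, CLK3 and CLK4 together with OGT, MAT2A, TRA2A, TRA2B, CCNL1 and CCNL2, which are known for transcripts that keep introns and stay in the nucleus. They were picked by gene symbol, and all 10 were found among the 27685 genes of the deposited table. The RNA came from NCI-H838, an established line of human lung adenocarcinoma, taken 48 hours after transient lipid-mediated transfection. One culture received the pCDH plasmid with full-length LINC00472, which is a long noncoding RNA, and the control culture received the empty pCDH plasmid. With 1 library per group the differences between them cannot be checked against replicates, and no p-value is given.

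CLK kinases phosphorylate SR proteins, the arginine/serine-rich splicing factors that gather in nuclear speckles, and this releases SR proteins to act at splice sites. In CLK1 and related transcripts some introns are removed late. The partly spliced RNA, called intron-detained, waits in the nucleus, and the introns can be removed when the supply of the protein runs low or the cell is stressed. OGT adds O-linked N-acetylglucosamine to nuclear and cytosolic proteins, and MAT2A makes S-adenosylmethionine, the methyl donor. Removal of retained introns from both transcripts is known to answer to the product of the enzyme. TRA2A and TRA2B are splicing activators that limit their own messages through exons with stop codons, and cyclins L1 and L2 (CCNL1, CCNL2) are speckle-associated partners of the CDK11 kinases.

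In CLK1 this control acts at exon 4, counted from the 5′ end of the coding transcript, with the introns on either side of it, and the matching exon was located in the other kinases. When exon 4 is skipped the reading frame shifts and the kinase domain is lost. The 4 exons are shown 5′ to 3′ because the CLK1 form with both flanking introns is among the transcripts of the deposited table, while the matching forms of CLK4 and CLK3 are not. The exon is in capitals and the adjoining intron bases are in lower case. Sequences are from GENCODE 29 on GRCh38, which is not the hg19 build of the deposited files, and none of the measurements was made by position.
CLK1 (chr2:200860105-200860235, minus strand): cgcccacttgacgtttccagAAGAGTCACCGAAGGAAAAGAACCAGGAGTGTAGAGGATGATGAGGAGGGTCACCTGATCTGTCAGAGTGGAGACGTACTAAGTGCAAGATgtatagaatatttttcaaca
CLK4 (chr5:178617324-178617454, minus strand): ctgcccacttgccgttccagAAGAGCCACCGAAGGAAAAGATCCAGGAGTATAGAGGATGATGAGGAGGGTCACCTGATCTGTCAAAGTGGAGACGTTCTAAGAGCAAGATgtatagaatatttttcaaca
CLK3 (chr15:74622100-74622236, plus strand): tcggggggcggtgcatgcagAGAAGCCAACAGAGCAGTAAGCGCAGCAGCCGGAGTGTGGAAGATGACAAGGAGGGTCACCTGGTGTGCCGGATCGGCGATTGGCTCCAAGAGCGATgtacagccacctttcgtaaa
CLK2 (chr1:155268708-155268795, minus strand, exon only): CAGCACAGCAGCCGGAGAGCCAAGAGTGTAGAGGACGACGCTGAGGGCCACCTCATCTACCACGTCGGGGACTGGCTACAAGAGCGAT

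Exon 4 was 91 nt long in CLK1 and in CLK4, and 85 of the 91 aligned positions were identical (93.4%). Identity of the CLK1 exon was 64.6% with CLK3 and 67.4% with CLK2. The introns before and after the exon measured 1022 and 378 nt in CLK1, 1121 and 395 nt in CLK4, and 1894 and 277 nt in CLK3. A GENCODE transcript of the type called retained intron (CLK1-210, CLK4-203 and CLK3-226) kept both introns in each of these 3 genes. CLK2 had introns of 692 and 348 nt there and 0 retained-intron transcripts. Since CLK1 and CLK4 are this alike, reads from one could be assigned to the other where they match, and the way such reads were assigned is not given in the sources used here.

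Across the 10 genes GENCODE listed a retained-intron transcript for 9, and for each of those 9 it listed 3 or more. Among 19969 protein-coding genes 46.1% had at least 1 and 19.7% had 3 or more. The 10 genes were chosen because they are known for such transcripts, so this excess follows from the choice and is no result. CCNL1 had the most, with 16 of its 26 transcripts, followed by CCNL2 with 9 of 20, CLK1 with 8 of 15 and TRA2B with 8 of 16. Whole introns kept in these transcripts ranged from 86 nt in CLK4 to 3271 nt in OGT. MAT2A had 3 short ones, of 94 to 255 nt.

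The deposited table named fewer of these forms than GENCODE does. Of the 10 genes, 2 had a retained-intron form among their listed RefSeq accessions, namely CLK1 and CCNL2. CLK1 had 4 accessions, of which 1 matched CLK1-210 (3208 nt, against 1888 nt for the coding transcript CLK1-201). CCNL2 had 11, of which 1 matched CCNL2-218 (4452 nt, against 2305 nt for CCNL2-201). CCNL2-218 holds 1938 nt of the intron before exon 6. The border is shown with those bases in lower case and the exon in capitals.
CCNL2 (chr1:1390836-1390905, minus strand): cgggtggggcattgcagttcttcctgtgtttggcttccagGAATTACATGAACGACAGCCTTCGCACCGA
CLK4 and MAT2A were listed with 1 accession each, both coding. The other 6 genes had 2 to 4 accessions and no retained-intron form.

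The LINC00472 library held 21093055 gene counts and the control library 54823706. LINC00472 itself had 5655 against 2563 counts, 4.69-fold higher after scaling. The 2 libraries differed widely. A gene is called higher or lower below where its mean level reached 1 CPM (counts relative to the scaled library size), its ratio reached 2-fold and the 95% counting interval of the ratio excluded equality. Of 14012 genes at that level, 16.3% were higher and 23.8% were lower, and the median log2 ratio of all of them was -0.19 with TMM scaling. Total-count scaling moved that median to 0.11 and upper quartile factors to 0.21, so each ratio is read against it. Of 5 epithelial markers, 4 were at 1 CPM, 0 were higher and 2 were lower. The lower ones were the keratins KRT8 (log2 ratio -1.98, 1153 against 9714 counts) and KRT18 (-2.90, 822 against 13046 counts). EPCAM was at -0.19 and CDH1 at 0.47, and KRT19 had 0 counts against 44. Of 4 markers of alveolar cells and lung adenocarcinoma, 1 was at 1 CPM, NAPSA, which was higher (log2 ratio 1.49, 88 against 66 counts). SFTPC had 0 against 7 counts, and NKX2-1 and SFTPB had 0 counts in both libraries. The part of these marker differences in the ratios below was not tested.

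Of the 10 genes, 4 were higher in the LINC00472 library and 0 were lower, against 16.3% and 23.8% of all genes. The 4 were CLK1, CCNL1, CCNL2 and OGT. CLK2 and CLK4 stood just under 2-fold, TRA2A, MAT2A and TRA2B showed smaller positive log2 ratios, and CLK3 lay at the median of all genes. The median log2 ratio of the 10 was 0.97, and 10 of 10 lay above the median of all genes with TMM scaling. CLK3 did so by less than its counting error (-0.182 against -0.189). With upper quartile factors CLK3 lay just below that median (0.2060 against 0.2063). With a minimum of 0.1 CPM the median of all genes was -0.04, which is above CLK3. The members together took 0.290% of all counts in the LINC00472 library (exact binomial 95% interval 0.287 to 0.292) and 0.104% in the control (0.103 to 0.104). In RNA from whole cultures, fewer cells of a kind and less RNA per cell cannot be told apart.

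RNAs of known location in the cell also differed between the libraries. Of 4 nuclear noncoding RNAs, 3 were at 1 CPM and 2 of those were higher: NEAT1 took 1.92% of counts against 0.176%, and MIAT had 2153 against 237 counts. MALAT1 had a log2 ratio of 0.81, and KCNQ1OT1 was below 1 CPM with 9 against 28 counts. Upper quartile factors gave 3 higher, with MALAT1 at 1.20, while adjusted ratios put MALAT1 at 0.22. The summed FPKM of the 4 was 1512 in the LINC00472 library against 449 for the control. Of 10 abundant messenger RNAs for cytosolic proteins, such as ACTB and GAPDH, 10 were lower, with log2 ratios from -2.87 to -1.02 (7 of 10 with upper quartile factors). Their summed FPKM was 2653 against 10927. Of all genes, 16.3% were higher and 23.8% lower with TMM scaling, and 25.1% and 14.2% with upper quartile factors. Both lists were chosen with earlier results of these data known. The part of these differences in the ratios of the 10 genes was not tested.

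**Figure D1:**
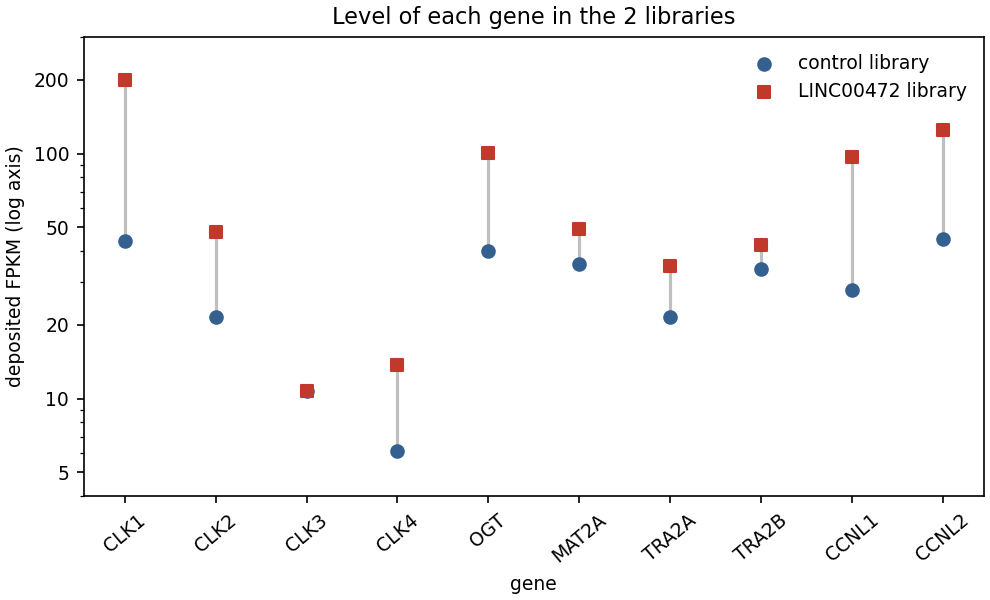
Deposited FPKM (fragments per kilobase and library size, as the authors computed it; log axis) of each gene in the control library (circles) and the LINC00472 library (squares), 1 library each, with a grey line joining them. CLK1 ran from 44.1 to 200 FPKM, and the CLK3 points, both 10.7 FPKM, coincide.

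Per length of transcript, CLK1 was the most abundant CLK kinase in both libraries. It had 200 FPKM in the LINC00472 library, against 44.1 FPKM in the control. CLK2 followed with 48.1 against 21.6 FPKM. CLK4 had 13.7 against 6.13 FPKM, and CLK3 had 10.7 in both. The LINC00472 value was thus the upper one for CLK1, CLK2 and CLK4, while CLK3 did not differ on this scale. Of the FPKM of the 4 kinases together, CLK1 held 73.4% in the LINC00472 library against 53.5% in the control, and CLK2 held 17.6% against 26.1%.

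CLK1 had 14812 counts against 6976 in the control, although the control was sequenced more deeply. After TMM scaling this was a 4.52-fold difference (log2 ratio 2.18, 95% counting interval 2.13 to 2.22). CLK2 had 2437 against 2646 counts, a log2 ratio of 0.97 with an interval of 0.89 to 1.05. CLK4 had 808 against 874 counts, a log2 ratio of 0.98 with an interval of 0.84 to 1.12. Both intervals include 2-fold, so whether these kinases pass that size is within counting error, and both were called higher with total-count scaling, upper quartile factors and FPKM. The shares of all genes called higher were then 22.5%, 25.1% and 15.5%, and those called lower 16.3%, 14.2% and 17.3%. CLK3 had 681 against 1644 counts, a log2 ratio of -0.18 (interval -0.31 to -0.05). Its sign was positive with total counts, upper quartile factors, FPKM and adjusted ratios, so no direction is given for it.

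The ratio of one gene to another within a library does not depend on how the libraries are scaled. CLK1 outnumbered CLK2 by 6.08 to 1 in counts in the LINC00472 library and by 2.64 to 1 in the control, a change of 2.31-fold (log2 1.20, 95% counting interval 1.11 to 1.30). The same change for CLK1 over CLK4 was 2.30-fold (log2 1.20, interval 1.05 to 1.35). CLK4 over CLK3 changed 2.23-fold (log2 1.16, interval 0.97 to 1.35) and CLK2 over CLK3 changed 2.22-fold (log2 1.15, interval 0.9997 to 1.31). By these pairs CLK1 lay above CLK2 and CLK4, and both lay above CLK3, with 4 intervals that leave out equality. CLK2 and CLK4 had log2 ratios within each other's counting intervals, but adjusted ratios set them apart, at 1.32 and 0.83.

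The cyclins L1 and L2 were the next highest. CCNL2 had 44.7 FPKM in the control, next to CLK1, and 125 FPKM in the LINC00472 library. CCNL1 had 27.7 FPKM in the control and 96.5 in the LINC00472 library. Both were thus well above their control values, and the 2 cyclins kept a similar balance. In counts CCNL1 had 6618 against 4590, 3.07-fold higher after scaling (log2 ratio 1.62, interval 1.56 to 1.67). CCNL2 had 13386 against 10792 counts, 2.64-fold higher (log2 ratio 1.40, interval 1.36 to 1.44). CCNL1 over CCNL2 changed 1.16-fold in counts (log2 0.22, interval 0.15 to 0.28). This small difference turned to -0.02 once ratios were adjusted for the length, GC content and introns of transcripts. That adjustment entered CCNL2 with its coding transcript of 2305 nt, which is shorter than the mean length given for it below.

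OGT had 100.3 FPKM in the LINC00472 library and 40.1 FPKM in the control. Its counts were 12911 against 12509, a log2 ratio of 1.14 after scaling (interval 1.10 to 1.17). With adjusted ratios OGT fell short of 2-fold, at a log2 ratio of 0.85, and CLK2 took its place among 4 higher genes with 1.32. By adjusted ratios 12.9% of all genes were higher and 23.9% lower, and the median of all genes was -0.32. MAT2A had 49.3 against 35.6 FPKM. Its counts were 3480 against 6091 and its log2 ratio was 0.28 (interval 0.22 to 0.34), which was not called.

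The TRA2 splicing activators did not reach 2-fold. TRA2A had 34.6 against 21.5 FPKM and 1688 against 2427 counts (log2 ratio 0.57, interval 0.48 to 0.66). TRA2B had 42.6 against 33.9 FPKM and 4282 against 8228 counts (log2 ratio 0.15, interval 0.09 to 0.20). Neither was called under any of the alternatives tried. TRA2A over TRA2B changed 1.34-fold in counts (log2 0.42, interval 0.31 to 0.52).

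**Figure D2:**
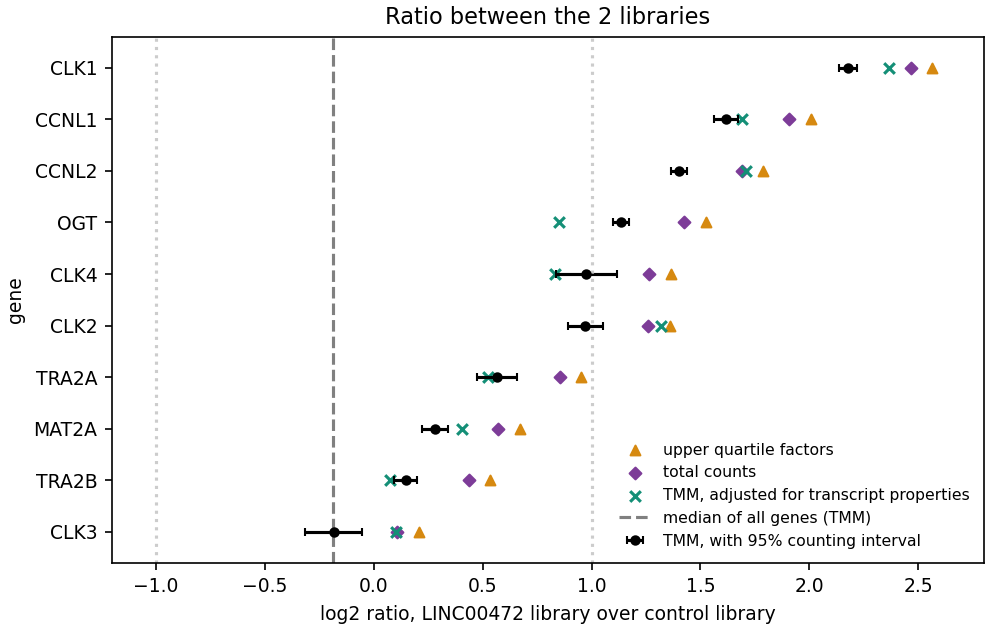
Log2 ratio of the LINC00472 library over the control library for each gene with TMM scaling (circles, bars are 95% counting intervals), total counts (diamonds), upper quartile factors (triangles) and TMM adjusted for transcript properties (crosses). The dashed line is the median of all genes with TMM (-0.19), dotted lines mark 2-fold, and CLK1 has the highest ratio and CLK3 the lowest with TMM.

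The deposited counts and FPKM also carry information on transcript form. For a gene with 1 listed transcript, counts divided by FPKM are proportional to its length. For a gene with several, the quotient gives the mean length of the forms the reads were assigned to, weighted by their FPKM, provided that the FPKM of a gene is the sum over its forms. This measure was taken up after the data had been seen. The quotient was scaled with 4564 genes that have 1 accession and a GENCODE length. Over all 4832 genes with 1 accession and at least 50 counts in each library, the log2 difference in this mean length between libraries ran from -0.01 to 0.01 (1st to 99th percentile). These genes cannot shift between listed forms, so this is the rounding of the measure and no measure of how far genes usually shift. Over 7943 genes with several accessions it ran from -0.12 to 0.11 (5th to 95th percentile) and from -0.32 to 0.37 (1st to 99th). Genes were counted as longer or shorter from a log2 difference of 0.05 (3.53%).

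CLK1 transcripts were longer on average in the LINC00472 library. The mean length was 3145 nt there and 2778 nt in the control, a difference of 13.2% (log2 0.18). CCNL2 followed, with 4552 nt against 4243 nt, or 7.30% longer (log2 0.10). TRA2A had 2072 nt against 1987 nt, or 4.29% longer (log2 0.06), and all 4 of its listed forms are coding. The other 7 genes differed by 0.30% or less, among them CLK4 and MAT2A, for which 1 listed accession leaves nothing to shift. Of the 10 genes, 3 were thus longer and 0 shorter. Among 7943 genes with several accessions, 11.2% were longer and 9.43% shorter. The differences of CCNL2 and TRA2A lay within the 5th to 95th percentile of these genes, and that of CLK1 within the 1st to 99th. A difference as large as that of CLK1 or larger was seen in 229 of these genes, as large as that of CCNL2 in 448, and as large as that of TRA2A in 756, each count including the gene itself.

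CLK1 and CCNL2, the genes with the greatest difference among the 10, are also those with a listed retained-intron form. The mean length of CLK1 in the LINC00472 library was nearer to the 3208 nt of CLK1-210 than to the other matched forms, which are 2026 nt or shorter. No share of reads on CLK1-210 is given, because the lengths are approximate: MAT2A, with 1 accession, came out at 3003 nt in the LINC00472 library against 2819 nt for its matched transcript. For CCNL2 the mean length in that library exceeded the longest matched transcript (4452 nt), and 3 of its 11 accessions were matched. These lengths rest on the authors' assignment of reads to forms and carry no error between cultures. Among 61 genes with several accessions, a retained-intron form and enough counts, CLK1 and CCNL2 included, 39.3% were longer and 8.20% shorter. In 33 of them the retained-intron form is the longest matched one. There the median log2 difference was 0.025, and it ran from -0.33 to 0.30 (5th to 95th percentile). Whether a larger share of retained-intron forms made the mean of CLK1 or CCNL2 longer was not tested. If reads were counted over the listed transcripts alone, reads in retained introns entered the ratios of CLK1 and CCNL2 and not those of the other 8 genes. How far this set their order was not tested.

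**Figure D3:**
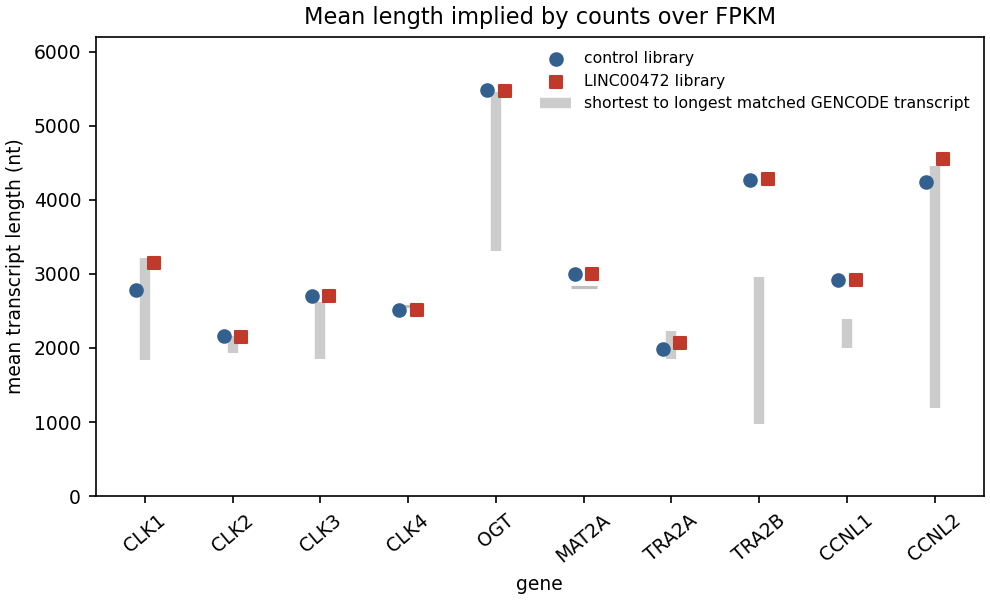
Mean transcript length in nt implied by deposited counts over FPKM for each gene in the control library (circles) and the LINC00472 library (squares). Grey bars span the shortest to longest GENCODE transcript matched to the listed accessions. The libraries separate for CLK1 (2778 and 3145 nt), CCNL2 (4243 and 4552 nt) and slightly for TRA2A (1987 and 2072 nt). Points above a bar, as for TRA2B and CCNL1, exceed the longest matched transcript, so lengths are approximate.

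Other proteins of the same speckle and splicing system went in both directions. Of 23 other arginine/serine-rich and speckle proteins, 9 were higher and 2 lower, against 16.3% and 23.8% of all genes. Their median log2 ratio was 0.38. LUC7L3, a relative of a U1 snRNP protein, was highest, with 163 FPKM against 21.5 and a log2 ratio of 2.37. PNISR (log2 ratio 1.93), NKTR (1.86) and RSRP1 (1.50) followed. The lower members were the U2AF subunits that recognise the 3′ splice site, U2AF1 (-1.77) and U2AF2 (-1.11). With upper quartile factors 11 were higher and 1, U2AF1, was lower (25.1% and 14.2% of all genes). Adjusted ratios gave 7 higher and 1 lower (12.9% and 23.9% of all genes).

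The SR proteins, which CLK kinases phosphorylate, had calls in both directions. Of 12, 2 were higher and 3 lower, near the shares of all genes (16.3% and 23.8%). Their median log2 ratio was 0.19. SRSF11 (log2 ratio 2.12; 129 against 29.1 FPKM) and SRSF5 (1.12) were higher, and SRSF8 (-1.33), SRSF9 (-1.27) and SRSF3 (-1.14) were lower. The log2 ratio of SRSF1, a general splicing activator, was 0.60. Upper quartile factors, which moved all genes up alike, gave 2 higher and 0 lower SR proteins (25.1% and 14.2% of all genes). The log2 ratios of SRSF8, SRSF9 and SRSF3 were then -0.94, -0.88 and -0.75, and the median of all genes was 0.21.

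The other kinases of SR proteins and the relatives of CLK held few calls. Of 12 listed, 11 were at 1 CPM, 1 was higher and 1 lower, against 16.3% and 23.8% of all genes. Their median log2 ratio was -0.08. SRPK1, the main cytoplasmic SR protein kinase, had 32.5 against 30.1 FPKM and a log2 ratio of -0.07, and SRPK2 had a log2 ratio of 0.35. PRPF4B, a spliceosome-associated kinase, was higher (log2 ratio 1.08), and DYRK4 was lower (-1.26, from 73 against 374 counts; -0.88 with upper quartile factors). With adjusted ratios PRPF4B fell short of 2-fold (0.79).

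Partners of the cyclins L were not called. CDK11A had a log2 ratio of 0.19 and CDK11B of 0.25, from 291 against 544 and 523 against 937 counts. These 2 genes are near-identical copies, so their separate counts are uncertain. Of 13 transcription cyclins and CDKs, 1 was higher, CCNK, the partner of CDK12 and CDK13 (log2 ratio 1.18), and 0 were lower. Of all genes, 16.3% were higher and 23.8% lower. The median of the 13 was -0.02, and upper quartile factors gave 2 higher (25.1% of all genes).

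Around OGT, the opposing enzyme OGA, which removes O-linked N-acetylglucosamine and is listed as MGEA5, had 65.9 against 32.6 FPKM and a log2 ratio of 0.83. OGT over OGA changed 1.23-fold in counts (log2 0.30, interval 0.25 to 0.36). Of 7 genes of the hexosamine pathway and O-GlcNAc cycling, 0 were higher and 1 was lower, GNPNAT1 (-1.27), an enzyme that supplies the sugar. The median of the 7 was -0.34, and 16.3% of all genes were higher and 23.8% lower. Upper quartile factors turned these calls to 2 higher and 0 lower (25.1% and 14.2% of all genes).

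The genes around MAT2A held lower calls only. MAT2B, the regulatory subunit, had 13.4 against 32.5 FPKM and a log2 ratio of -1.46, so MAT2A over MAT2B changed 3.35-fold in counts (log2 1.75, interval 1.61 to 1.88). METTL16, the methyltransferase that acts on MAT2A RNA, had a log2 ratio of -0.89. Of 13 methionine and S-adenosylmethionine genes, 11 were at 1 CPM and 4 of these were lower and 0 higher (23.8% and 16.3% of all genes). Their median was -0.88. The same counts were obtained with upper quartile factors, when 14.2% of all genes were lower and 25.1% higher. Beside MAT2B the lower ones were SRM (-2.62) and SMS (-1.79), which make polyamines, and AHCY (-1.94), which clears S-adenosylhomocysteine.

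Over these 6 lists together, 13 of 77 genes at 1 CPM were higher (16.9%, against 16.3% of all genes) and 11 lower (14.3%, against 23.8%), and the median was -0.02. Upper quartile factors gave 18 higher and 5 lower, when 25.1% and 14.2% of all genes were so called. The 10 genes had 4 of 10 higher and a median of 0.97 against -0.19 for all genes, and no test of this difference was possible with 1 library per group.

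**Figure D4:**
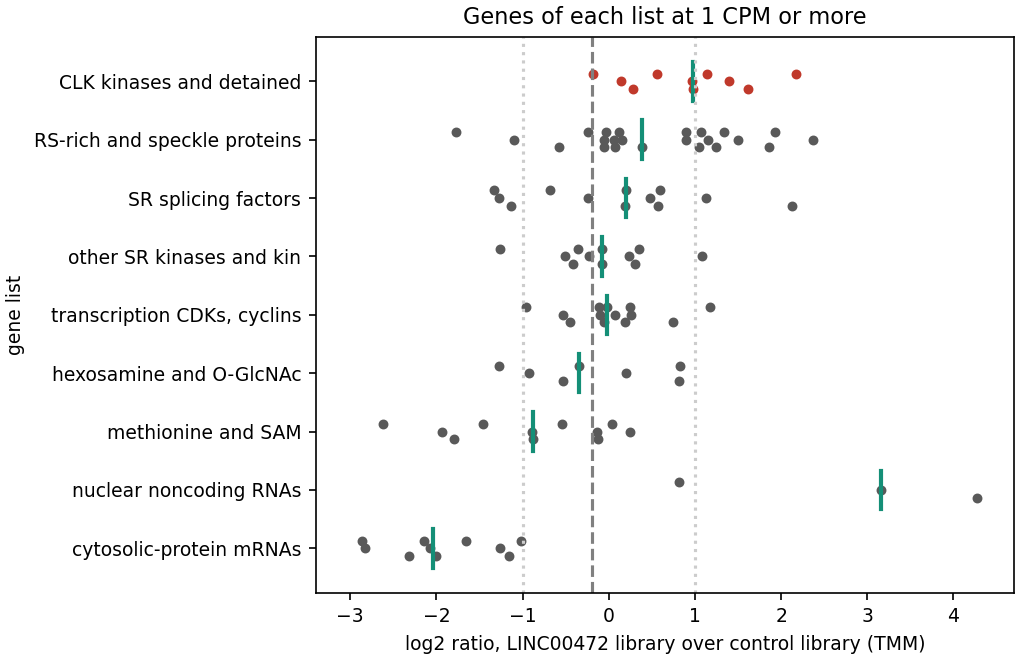
Log2 ratio (TMM) of each gene at 1 CPM or more in the CLK and detained-transcript genes (red) and in 8 other gene lists (grey), with the median of each list as a vertical bar. The dashed line is the median of all genes (-0.19) and dotted lines mark 2-fold. The red points run from -0.18 to 2.18, and the messenger RNAs of cytosolic proteins lie at -1.02 or to its left.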

How the data were processed

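The authors deposited whole-number read counts and FPKM per gene for both libraries, per the file headers. Per the submitters' processing notes, the build was hg19 and the tools included HISAT2 2.1.0 and StringTie 1.3.4b, besides Trimmomatic and bcl2fastq 2.20.0. How reads were counted, and with which strand setting, is not given in the sources used here. The joint table and the single-library tables held the same counts for all 27685 genes. Genes, lists and pairs were chosen with earlier results of these data known.

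TMM factors from edgeR 4.0.16 under R 4.3.3 scaled the counts (1.11 for LINC00472, 0.905 for control), and log2 ratios used a prior count of 0.5. Intervals of ratios are exact conditional (Clopper-Pearson) 95% intervals, and those of gene pairs are exact conditional odds ratio intervals from scipy 1.17.1. They cover counting error and nothing else, because reads are not independent molecules. Adjusted ratios come from a spline model (5 knots, degree 3, scikit-learn 1.9.0) on transcript length, GC content and intron length from GENCODE 29. They are its residuals over 13621 genes, with the median log2 ratio of those genes added back. Each gene entered with 1 transcript, a coding one where one was matched. For CLK1 (2026 nt) and CCNL2 (2305 nt) it was shorter than the mean lengths given above. The effect of this choice on adjusted ratios was not tested. Alternatives were total counts, upper quartile and DESeq2 1.42.0 size factors, a prior count of 5, FPKM plus 0.5 without the interval criterion, the single-library tables, minimums of 0.1 and 5 CPM, leaving out the 100 most abundant genes, and adjusted ratios.

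Named genes are the 10 members, up to 4 called genes per direction in each other list, and 7 direct partners (OGA, MAT2B, METTL16, CDK11A, CDK11B, SRPK1, SRPK2). SRSF1, MALAT1, KCNQ1OT1 and the marker genes fall outside that rule and were named after their values were seen. On simulated counts for this comparison (14017 genes, counting error alone) the size rule called 100 of 100 genes changed 4-fold, 100 of 100 changed 3-fold and 2 of 13817 unchanged genes. The scale was known there and no difference between cultures was put in. It therefore does not show how reliable the calls in the real libraries are.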

Additional observations from a re-analysis of the deposited data

How the results depend on the processing

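The count of higher genes among the 10 stayed at 4 with a prior count of 5 and without the 100 most abundant genes. Both settings barely moved the ratios, so they put the count to little test. The log2 ratio of CLK4, just under 2-fold, went from 0.976 to 0.971 and 0.975. The count was also 4 with adjusted ratios (12.9% of all genes), there with CLK2 in place of OGT. The single-library tables hold the same counts, and each of the 10 had a mean of 26.1 CPM or more. Those tables and the minimums of 0.1 and 5 CPM therefore could not change the count. DESeq2 size factors also gave 4, but nearly equalled the TMM factors (1.105 for LINC00472 in both). The count moved under other settings. It was 6 with total counts, upper quartile factors and FPKM, and 0 were lower under each of the 10 alternatives. Of all genes 22.5%, 25.1% and 15.5% were then higher, against 16.3% with TMM. The shares lower were 16.3%, 14.2% and 17.3%, against 23.8%. The median log2 ratio of the 10 was 1.26 by total counts, 1.36 by upper quartile factors, 1.12 with FPKM and 0.84 with adjusted ratios. The medians of all genes were then 0.11, 0.21, -0.008 and -0.32. Lower genes in the 6 other splicing and metabolic lists numbered 6 by total counts and 5 by upper quartile factors, against 11. The share of all genes called lower fell likewise, to 16.3% and 14.2% from 23.8%. Log2 changes of pairs with FPKM were 1.03 for CLK1 over CLK2 and 0.31 for CCNL1 over CCNL2. With adjusted ratios they were 1.04 for CLK1 over CLK2, 1.53 for CLK1 over CLK4, 0.73 for CLK4 over CLK3, 0.23 for OGT over OGA, 1.89 for MAT2A over MAT2B and -0.018 for CCNL1 over CCNL2, the pair that reversed. The cause was not tested, except that total counts and upper quartile factors raised 10 of 10 genes through the scale alone. The 3 genes with longer mean transcripts stayed 3 at a minimum of 200 counts and with the scale taken from transcripts of 2000 nt or more. Both settings were chosen after seeing the data, and neither could put the count to a test. Each of the 10 genes had more than 200 counts in both libraries, and each setting moved all log2 length differences almost alike. That of TRA2A, the smallest of the 3, went from 0.0606 to 0.0607 under both. The cut-off for calling a gene longer was not varied. No paired analysis was possible because each group holds 1 library. Depth limits CLK4 and CLK3 most, with 808 and 681 counts in the LINC00472 library.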
